A study of Mus musculus with 6 samples.

Results

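The 37 genes described here take glucose into the cell, break it down to pyruvate and decide whether pyruvate leaves as lactate or enters the mitochondrion. They were chosen by gene symbol from the count tables, and 37 of the 24062 rows of the tables carry their symbols. Of these, 36 passed the low-count filter and were tested, among 13155 genes tested in all. The exception was Pdk4, with 9, 2 and 1 counts in the libraries of the softer substrate and 0 in those of the stiffer one, where each 0 allows up to 3 counts.

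The libraries are polyA RNA-seq of C57BL/6J mouse marrow from femur and tibia, grown in wells with GM-CSF at 20 ng/ml and given fresh cytokine on days 3, 6 and 10. GM-CSF is the cytokine that drives marrow precursors towards dendritic cells and macrophages. The low tension group (n = 3) grew at 2 kPa and the high tension group (n = 3) at 50 kPa, and strain, cytokine and feeding were common to both. Age, sex and the substrate's material were not given, and no sort is named. Whether replicates are separate cultures or animals is not said either, and the p-values therefore cover the spread among these libraries alone, which could be technical. The study's title names dendritic cell metabolism, and its design text the transcription of the mixed cells of such cultures. Levels are CPM, counts per M of a library's TMM-scaled size, and log2 fold changes are 50 kPa over 2 kPa with their standard error.

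In glycolysis, transporters of the SLC2A (GLUT) family carry glucose in, hexokinases trap it as glucose 6-phosphate, and phosphofructokinase commits it to breakdown. Pyruvate kinase makes pyruvate, which lactate dehydrogenase turns into lactate for export by monocarboxylate transporters. Pyruvate dehydrogenase instead feeds it to the mitochondrion, and the PDK kinases switch that enzyme off. In dendritic cells and macrophages, activation is known to raise glucose uptake and lactate output.

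Depth was even: total counts ran from 33.83 M to 36.27 M and TMM factors from 0.9273 to 1.157. High tension replicates 1 and 2 resembled each other closely, with 6.706 for the ratio of chi-square to degrees of freedom, whereas every other pair of the same stiffness gave 126 to 233.1. For the genes at an unadjusted p under 0.05, the adjusted p with this pair summed into 1 sample, an alternative chosen after seeing the data, stands beside the value.

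None of the 36 tested genes differed between the stiffnesses at a Benjamini-Hochberg adjusted p under 0.05 by edgeR, which called 3.45% of all genes tested (1.47% higher and 1.98% lower at 50 kPa). The smallest edgeR adjusted p among them was 0.0548, for Pdk2. On simulated counts in which 196 of 13023 genes changed, the same fit called 29.6% of 2-fold changes. That rate depends on the share of changed genes and on their levels, so it need not hold for these genes. The lack of a call does not show equal levels. At an unadjusted p under 0.05 there were 12 of 36 (33.3%), 8 higher and 4 lower at 50 kPa, against 27.8% of all genes tested, which is near that background. DESeq2 called 10 of them, 8 higher (Slc2a1, Gpi1, Pfkm, Fbp1, Aldoc, Ldhb, Pdk2 and Pcx) and 2 lower (Slc2a3 and Slc2a6), where it called 18% of all genes tested (8.52% higher and 9.51% lower). limma-voom called 1, Pcx, and 3.27% of all genes tested. The median log2 fold change was 0.105, beside -0.028 over all genes tested. With total counts in place of TMM factors the median over all genes moved to -0.162 and that of these genes to -0.011, and Gapdh, Pkm, Pdha1 and Pdhb changed sign.

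The levels in the 3 libraries at 50 kPa lay wholly above those at 2 kPa in 10 genes and wholly below in 6, 44.4% of 36, beside 34.1% of all genes tested (17.2% higher and 16.9% lower). These were Slc2a1, Gpi1, Pfkm, Fbp1, Aldoa, Aldoc, Pgam1, Ldhb, Pdk2 and Pcx on the higher side, and Slc2a3, Pfkl, Pfkfb1, Eno3, Ldha and Pdk3 on the lower. Without high tension replicate 3 the counts were 16 and 10, or 72.2% of 36, beside 55.2% of all genes tested. Without high tension replicate 1 they stayed at 10 and 6, beside 37.5%. Among these, one isozyme stood higher at 50 kPa and a partner lower in the glucose transporters, the phosphofructokinases, the lactate dehydrogenases and the PDK kinases. Both aldolases, Aldoa and Aldoc, stood higher, and the shares of the phosphofructokinases, given below, all overlapped. How often partners lie on opposite sides in other sets of genes was not tested. The genes added up to 15072, 13642 and 16684 CPM in low tension replicates 1, 2 and 3, and to 16910, 16878 and 15543 CPM at 50 kPa. These sums overlapped, at 15133 ± 1522 and 16444 ± 780 CPM (SD, n = 3 each; 2-sided exact permutation p = 0.2).

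**Figure D1:**
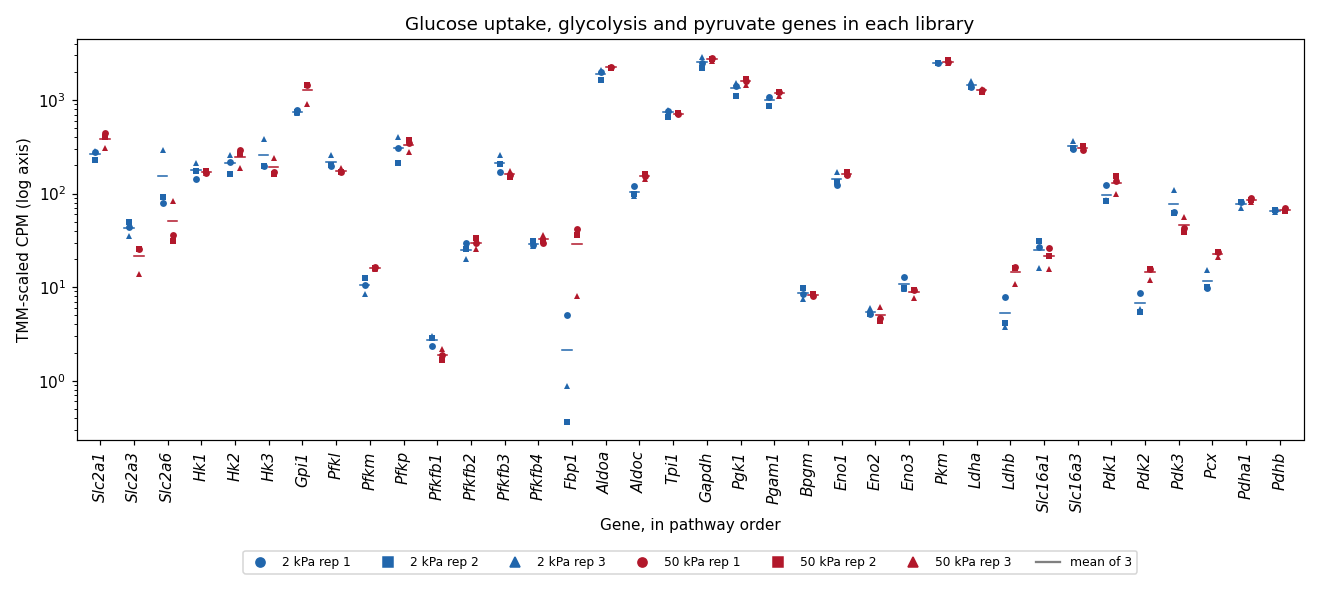
TMM-scaled CPM (log axis) of the 36 tested genes in pathway order. Each point is a library (blue, 2 kPa; red, 50 kPa; the shape gives the replicate number) and each short line the mean of 3. Pkm, Gapdh and Aldoa lie near the top in every library, and Fbp1 spans the widest range, from 0.36 to 41.9 CPM.

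**Figure D2:**
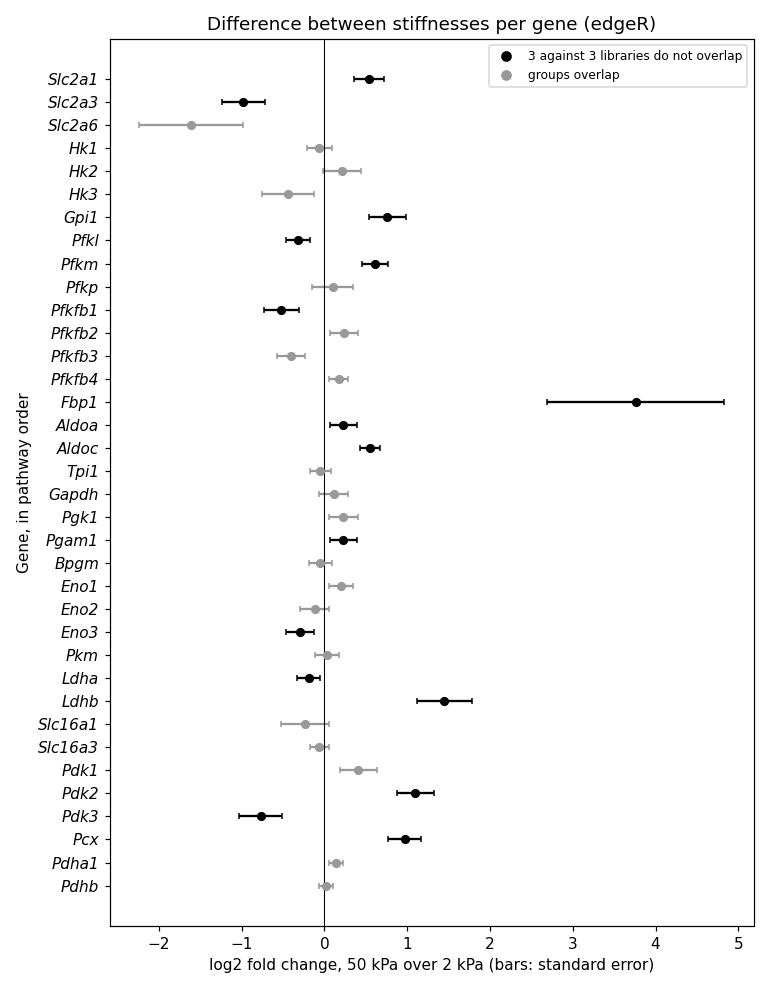
Log2 fold change, 50 kPa over 2 kPa, of the 36 tested genes in pathway order, with the standard error from edgeR. Black points mark the 16 genes whose 3 libraries at one stiffness do not overlap the 3 at the other, and grey points the other 20; no gene passed the adjusted threshold.

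With the counts of high tension replicates 1 and 2 summed into 1 sample, 0 of the genes were called by edgeR, as were 0 of all genes. At an unadjusted p under 0.05, 7 of the genes stood higher and 1 lower, beside 2138 of all 13429 genes tested in that fit. Markers of some other cell types differed between the stiffnesses in the main fit. For comparison, edgeR called 1.47% of all genes tested higher and 1.98% lower, and DESeq2 8.52% and 9.51%. At an unadjusted p under 0.05 by edgeR, 13% of all genes tested were higher and 14.8% lower. Of 13 neutrophil markers 7 fell and 0 rose by edgeR, and their summed level was 3843 to 7689 CPM at 2 kPa and 868 to 1669 CPM at 50 kPa, with S100a9 at 1676 ± 666 and 211 ± 86.8 CPM. B cell markers fell in 6 of 8 (86.5 to 137 CPM summed at 2 kPa, 25 to 33.2 at 50 kPa), megakaryocyte markers in 4 of 7 (220 to 380 and 76.3 to 241) and monocyte markers in 2 of 5 (619 to 1222 and 314 to 1042). None of 7 basophil and mast cell markers was called (284 to 685 and 151 to 180 CPM), nor of 6 fibroblast markers (3.6 to 19.4 and 1.88 to 4.0) or of the 1 erythroid marker tested, and Hba-a1, Hbb-bt and Alas2 were listed at 0 throughout. At an unadjusted p under 0.05 these 3 lists had 6, 4 and 1 lower genes by edgeR, and DESeq2 called 6, 3 and 1. All 10 dendritic cell and 10 macrophage markers were detected and none was called. At an unadjusted p under 0.05 they gave 3 higher and 4 lower, and 5 higher and 0 lower, and DESeq2 called 3 higher and 4 lower, and 4 higher. Their summed levels were 4922 to 9701 and 2029 to 3953 CPM at 2 kPa, and 11754 to 17803 and 5220 to 6024 CPM at 50 kPa, led among dendritic cell markers by Cd74 (4611 ± 1492 and 8998 ± 1766 CPM), H2-Ab1 and Itgax. Other dendritic cell markers lay the other way without overlap, Ccr7 at 478 ± 141 and 205 ± 90.7 CPM, Dpp4 at 35.4 ± 6.3 and 13.3 ± 5.03, Flt3 at 7.33 ± 2.71 and 2.78 ± 1.05, and Batf3 at 17.6 ± 1.17 and 12.8 ± 1.13, named after their values were seen. Fewer cells of a type and less RNA per cell cannot be told apart in such samples, and the part of cell makeup in the values below was not tested.

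Reads of several of these genes could also match other genes. In Gapdh 82.5% of 50-base stretches of its longest coding transcript occur in transcripts of other genes, in Eno1 72.2%, most often in Eno1b, and in Pgk1 68.0%. The share was 41.5% in Pgam1, 34.4% in Pkm, 30.3% in Pdhb, 27.0% in Ldhb, 25.3% in Gpi1 and 25.1% in Pfkfb2. The levels of these genes thus rest on the authors' rule for reads that match more than one gene, which the labels do not state. Slc2a3, Slc2a6, Hk2, Hk3, Aldoc, Pdk1, Pdk2, Pdk3 and Pcx shared 0 to this depth. Exons of Slc2a1, Hk3, Gpi1, Pfkm, Pfkp, Pfkfb2, Aldoa, Tpi1 and Pdha1 overlap exons of a gene on the opposite strand, and whether counting used strand is likewise unstated.

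The promoters below are those of the main glucose transporter, of the 2 PDK kinases that stood on opposite sides at 50 kPa, of pyruvate carboxylase and of Txnip, a regulator of glucose uptake described further on. Each is the stretch of up to 250 bases before the gene's start, read 5′ to 3′ on the gene's strand (RefSeq, GRCm38.p6). It ends before both the RefSeq and the first GENCODE start. Capitals mark ACGTG or GCGTG on either strand, the core that hypoxia-inducible factors bind. A CACGTG box, the core bound by Myc, holds ACGTG on both strands and is counted as 2 matches. Other forms of that box, and the sites of MondoA, were not searched.
Slc2a1 (chr4:119108495-119108710, plus strand): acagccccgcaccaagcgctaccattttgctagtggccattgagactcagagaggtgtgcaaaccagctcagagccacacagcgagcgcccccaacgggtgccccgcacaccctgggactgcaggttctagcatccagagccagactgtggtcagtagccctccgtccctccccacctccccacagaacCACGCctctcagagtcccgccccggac
Pdk2 (chr11:95041372-95041621, minus strand): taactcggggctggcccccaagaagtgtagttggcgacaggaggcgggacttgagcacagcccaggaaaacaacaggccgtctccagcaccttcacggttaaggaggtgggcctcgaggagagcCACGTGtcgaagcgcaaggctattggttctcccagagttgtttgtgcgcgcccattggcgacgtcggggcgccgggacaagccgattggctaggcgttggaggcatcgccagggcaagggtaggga
Pdk3 (chrX:93832202-93832400, minus strand): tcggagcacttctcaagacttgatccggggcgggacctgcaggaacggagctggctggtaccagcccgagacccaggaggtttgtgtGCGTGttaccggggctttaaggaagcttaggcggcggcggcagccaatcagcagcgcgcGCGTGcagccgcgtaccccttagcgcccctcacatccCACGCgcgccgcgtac
Pcx (chr19:4510222-4510471, plus strand): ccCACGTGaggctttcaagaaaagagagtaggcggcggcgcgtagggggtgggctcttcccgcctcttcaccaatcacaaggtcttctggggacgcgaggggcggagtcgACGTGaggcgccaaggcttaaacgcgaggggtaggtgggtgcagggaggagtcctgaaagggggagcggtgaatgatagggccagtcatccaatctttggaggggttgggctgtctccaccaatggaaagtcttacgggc
Txnip (chr3:96557707-96557956, plus strand): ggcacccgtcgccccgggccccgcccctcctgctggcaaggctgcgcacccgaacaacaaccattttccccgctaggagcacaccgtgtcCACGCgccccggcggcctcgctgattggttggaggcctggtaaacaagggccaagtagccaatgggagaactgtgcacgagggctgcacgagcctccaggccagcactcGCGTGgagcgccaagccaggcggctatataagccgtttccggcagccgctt

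Pdk2 has 2 matches of the core, which are the 2 strands of 1 CACGTG box. Pcx has 3, of which 2 make up 1 CACGTG box. Both genes have another RefSeq window that is not printed, at chr11:95040876-95041125 for Pdk2 and chr19:4594069-4594318 for Pcx, and each of these holds 0 matches. Pdk3 has 3 of the GCGTG form, Txnip 2 and Slc2a1 1, with 0 CACGTG boxes. The stretches of Slc2a1 and Pdk3 are shortened, and their full windows of 250 bases, which enter the counts that follow, hold 2 and 4. RefSeq windows of 250 bases were at hand for 36 of the 37 genes, 56 windows in all. The core was in 41 of the 56 windows (73.2%), beside 38.6% of all 32851 windows of that length, and CACGTG in 7 of the 56 (12.5%), beside 6.0% of all. Windows of 1 gene can overlap each other. Both forms of the core hold the letters CG, and the windows compared were not matched for base makeup. The part of base makeup in the higher percentages was not tested. Genes on both sides carried the core, Pdk2 and Pdk3 among them. A match is a description of letters, not of binding.

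Slc2a1 encodes GLUT1, the main glucose transporter of many activated leukocytes (chromosome 4, 119108711 to 119137983, plus strand). It stood at 278, 231 and 287 CPM in low tension replicates 1, 2 and 3, and at 448, 401 and 308 CPM in high tension replicates 1, 2 and 3. Every library at 50 kPa was above every library at 2 kPa, with replicate 3 closest, and the log2 fold change was 0.54 ± 0.18 (edgeR adjusted p = 0.118, and 0.341 with the pair summed). Slc2a3, which encodes the high-affinity transporter GLUT3 (chromosome 6, 122727809 to 122801640, minus strand), went the other way, at 44.1, 49.4 and 35.4 CPM at 2 kPa and 25.9, 25.6 and 13.9 CPM at 50 kPa. The groups did not overlap, with a log2 fold change of -0.98 ± 0.26 (edgeR adjusted p = 0.0851, and 0.232 with the pair summed). Slc2a6 encodes GLUT6, a transporter of intracellular membranes, and was at 79.5, 92.7 and 289 CPM at 2 kPa and 36.4, 30.9 and 83.9 CPM at 50 kPa. Replicate 3 was the highest in both groups, and high tension replicate 3 exceeded low tension replicate 1. Its log2 fold change of -1.61 ± 0.63 (edgeR adjusted p = 0.162, and 0.403 with the pair summed) was -0.77 when low tension replicate 3 was left out, and was -2.19 when high tension replicate 3 was.

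Isozyme use was compared as the share of a step's summed CPM per kb of exon, which takes account of unlike exon lengths. It does not correct for stretches shared with other genes, which differ between isozymes of a step as described above. In all, 23 shares over 9 steps were compared, and 10 of them had groups that did not overlap. Shares of 1 step are parts of the same sum, so they are not independent of each other. The count has no counterpart over all genes, but the levels of 34.1% of all genes tested did not overlap either. One of the 10 is Pdk4, whose 0 counts at 50 kPa allow up to 3 each. That range takes in the 2 and 1 counts at 2 kPa, though not the 9, so these groups cannot be called apart. Without Pdk4, 9 such shares are left. Here 3 against 3 libraries cannot give a 2-sided exact permutation p under 0.1 (adjusted p = 0.23 over the 23). Slc2a1 took 63.8, 55.9 and 37.9% of glucose transporter CPM per kb at 2 kPa and 85.4, 85.5 and 68.9% at 50 kPa, means of 52.5 ± 13.3% and 79.9 ± 9.57% (SD, n = 3). No library at 50 kPa came below the highest at 2 kPa. Slc2a6 took 27.8, 34.2 and 58.3% at 2 kPa and 10.6, 10.0 and 28.6% at 50 kPa, an overlap of the groups by high tension replicate 3. Slc2a3 held at most 9.86% in any library, 7.35 ± 3.12% and 3.7 ± 1.01%, with overlap. The summed transporter level overlapped widely, at 164 ± 59.0 and 148 ± 12.2 CPM per kb.

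**Figure D3:**
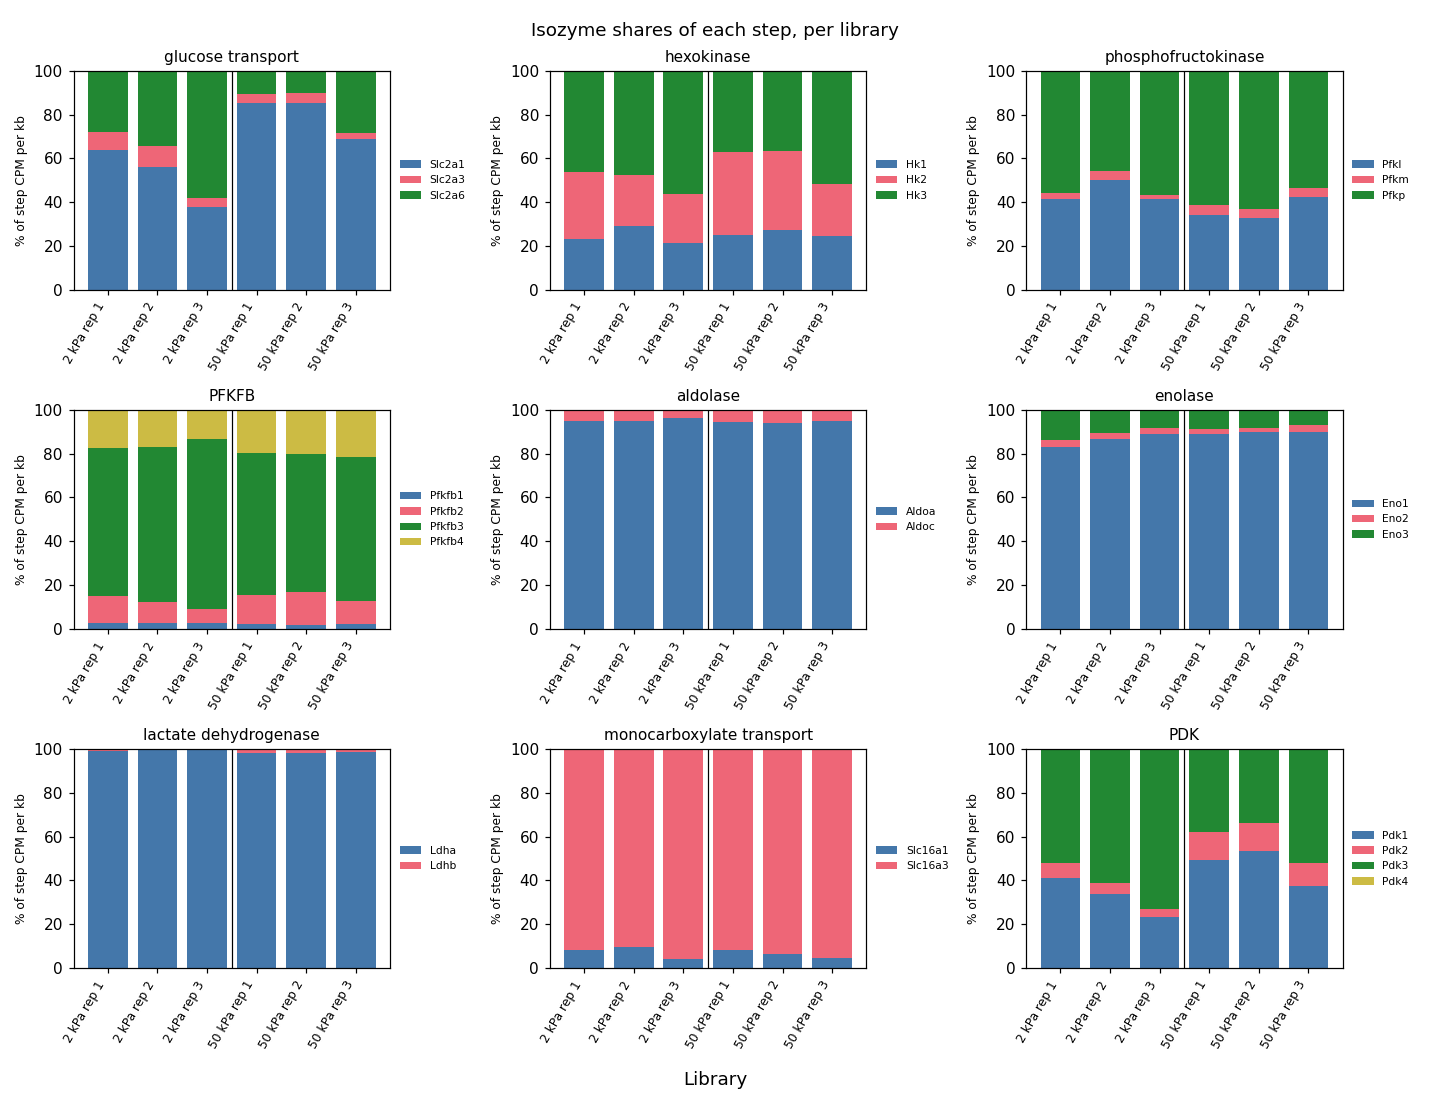
Share of each isozyme in the summed CPM per kb of exon of its step (percent), one bar per library, 2 kPa left and 50 kPa right of the line. Slc2a1 makes up 37.9 to 63.8% of the transporter bar at 2 kPa and 68.9 to 85.5% at 50 kPa, while Ldha and Slc16a3 fill over 90% of theirs in every library.

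The levels of all 3 hexokinases overlapped between the groups. Hk3, an isozyme of granulocytes and other myeloid cells, had the highest mean level per kb over the 6 libraries (in high tension replicate 1 Hk2 was slightly above it, at 37.7 against 37.3% of the step) and was at 199, 198 and 384 CPM at 2 kPa and 171, 162 and 243 CPM at 50 kPa. Again replicate 3 was highest in both groups, and the log2 fold change of -0.44 ± 0.31 (edgeR adjusted p = 0.386) came to -0.05 without low tension replicate 3. Hk1, the isozyme found in most tissues, was 177 ± 33.2 and 170 ± 4.77 CPM. Hk2, the inducible isozyme that binds mitochondria, was 214 ± 47.3 and 248 ± 54.4 CPM. The share of Hk2 in hexokinase CPM per kb was 30.4, 23.6 and 22.6% at 2 kPa and 37.7, 36.1 and 23.6% at 50 kPa, and high tension replicate 3 lay within the range at 2 kPa.

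Gpi1, which interconverts glucose and fructose phosphates (chromosome 7, 34201330 to 34230336, minus strand), stood at 790, 744 and 719 CPM at 2 kPa and 1464, 1443 and 901 CPM at 50 kPa. High tension replicates 1 and 2 were nearly alike and replicate 3 lay between them and the other group. The log2 fold change was 0.76 ± 0.22 (edgeR adjusted p = 0.0962, and 0.311 with the pair summed), the largest in absolute size among the 8 most abundant of the genes, which held 81.7% of their summed CPM.

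Phosphofructokinase is a tetramer built from liver (Pfkl), muscle (Pfkm) and platelet (Pfkp) subunits. Pfkm, the scarcest per kb, was at 10.6, 12.6 and 8.38 CPM at 2 kPa and 16.5, 15.9 and 15.6 CPM at 50 kPa, a log2 fold change of 0.61 ± 0.16 (edgeR adjusted p = 0.0864, and 0.255 with the pair summed). Pfkl was at 198, 204 and 258 CPM at 2 kPa and 169, 169 and 190 CPM at 50 kPa, a log2 fold change of -0.32 ± 0.14 (edgeR adjusted p = 0.191). Neither pair of groups overlapped, and the 2 subunits lay on opposite sides. Pfkp, the subunit with the highest mean level per kb over the 6 libraries though below Pfkl in low tension replicate 2, was at 311, 215 and 406 CPM at 2 kPa and 350, 375 and 277 CPM at 50 kPa, with full overlap (0.10 ± 0.25). The share of each subunit in the step overlapped between the groups, Pfkp at 52.9 ± 6.04% and 59.4 ± 5.28%, Pfkl at 44.3 ± 5.09% and 36.5 ± 5.07%, and Pfkm at 2.75 ± 1.08% and 4.11 ± 0.243%.

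The PFKFB enzymes make and break the fructose bisphosphate that activates phosphofructokinase. Pfkfb3, the isozyme that strongly favours its synthesis, was at 171, 205 and 260 CPM at 2 kPa and 158, 151 and 174 CPM at 50 kPa (-0.40 ± 0.17, edgeR adjusted p = 0.189). High tension replicate 3 overlapped low tension replicate 1. Its share of PFKFB CPM per kb did not overlap, at 67.4, 70.6 and 77.9% against 64.9, 62.7 and 65.5%, and neither did that of Pfkfb4, at 17.4, 17.0 and 13% against 19.6, 20.3 and 21.7%. The level of Pfkfb4 itself was 28.8 ± 1.98 and 32.4 ± 3.44 CPM, and that of Pfkfb2 25 ± 4.75 and 29.5 ± 3.79 CPM, both with overlap. Pfkfb1, the liver and muscle isozyme, was at 2.74 ± 0.366 and 1.9 ± 0.251 CPM without overlap (edgeR adjusted p = 0.166, and 0.417 with the pair summed). Fbp1, the bisphosphatase that runs the phosphofructokinase step backwards in gluconeogenesis (chromosome 13, 62864753 to 62888282, minus strand), showed the largest difference of the genes. It was at 5.1, 0.36 and 0.871 CPM at 2 kPa, from 197, 15 and 29 counts, and at 41.9, 36.1 and 7.99 CPM at 50 kPa. Low tension replicate 1 and high tension replicate 3 were close to each other, and the log2 fold change was 3.76 ± 1.07 (edgeR adjusted p = 0.0952, and 0.276 with the pair summed). Without low tension replicate 1 it was 5.57 (edgeR adjusted p = 0.0492), where 4 of the genes, Fbp1, Aldoc, Ldhb and Pdk2, were called by edgeR, beside 3.82% of all genes tested in that fit. With any other library left out, the log2 fold change of Fbp1 was 3.25 to 4.21 (edgeR adjusted p from 0.078 to 0.288).

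Aldolase splits the bisphosphate into triose phosphates, and Aldoc, the isozyme best known from brain (chromosome 11, 78322968 to 78327781, plus strand), was at 120, 99.0 and 93.9 CPM at 2 kPa and 153, 163 and 142 CPM at 50 kPa. The groups were clear of each other, with a log2 fold change of 0.55 ± 0.12 (edgeR adjusted p = 0.0655, and 0.236 with the pair summed). Aldoa, the predominant isozyme, was at 1984, 1631 and 2089 CPM at 2 kPa and 2280, 2179 and 2252 CPM at 50 kPa (0.23 ± 0.16, edgeR adjusted p = 0.382). Aldoa held 95.4 ± 0.714% of aldolase CPM per kb at 2 kPa and 94.4 ± 0.455% at 50 kPa. The summed aldolase level was 814, 669 and 846 CPM per kb against 940, 904 and 926, one of 2 step totals of 9 without overlap, and the other was lactate dehydrogenase (2-sided exact permutation p = 0.1 each, the smallest possible, adjusted p = 0.45 over the 9).

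The genes from triose phosphate isomerase to pyruvate kinase included several of the most abundant. Pkm, pyruvate kinase, was at 2514, 2514 and 2515 CPM at 2 kPa and 2553, 2677 and 2466 CPM at 50 kPa (0.03 ± 0.15). Gapdh was 2531 ± 327 and 2723 ± 94.9 CPM, the triose isomerase gene Tpi1 738 ± 64.2 and 714 ± 9.3 CPM, and the phosphoglycerate kinase gene Pgk1 1349 ± 210 and 1582 ± 128 CPM. Each of these 4 overlapped between the groups, and their log2 fold changes lay between -0.05 and 0.23. Pgam1, the phosphoglycerate mutase, was at 1075, 857 and 1091 CPM at 2 kPa and at 1229, 1226 and 1101 CPM at 50 kPa, a narrow separation (0.23 ± 0.16, edgeR adjusted p = 0.36). Bpgm, which makes bisphosphoglycerate, was 8.59 ± 1.14 and 8.29 ± 0.205 CPM. Among enolases, Eno1 was at 125, 133 and 170 CPM at 2 kPa and 158, 172 and 161 CPM at 50 kPa, with overlap. Eno3, the muscle enolase, was at 13, 9.88 and 9.52 CPM at 2 kPa and 9.33, 9.4 and 7.61 CPM at 50 kPa, apart by a small margin (-0.30 ± 0.17, edgeR adjusted p = 0.299). Eno2, the neuronal one, was 5.47 ± 0.44 and 5.02 ± 0.922 CPM. The share of Eno1 in enolase CPM per kb was 86.1 ± 3.09% and 89.7 ± 0.517%, without overlap, under the limit on Eno1 reads given above.

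Lactate dehydrogenase is built from A chains, which predominate in glycolytic cells, and B chains, which predominate in oxidative tissues such as heart. Ldha was at 1375, 1372 and 1611 CPM at 2 kPa and 1287, 1228 and 1297 CPM at 50 kPa, wholly lower but by a small step (-0.19 ± 0.14, edgeR adjusted p = 0.405). Ldhb (chromosome 6, 142490249 to 142507957, minus strand) was at 7.84, 4.17 and 3.75 CPM at 2 kPa and 16.6, 15.9 and 10.7 CPM at 50 kPa, wholly higher. Its log2 fold change was 1.45 ± 0.33 (edgeR adjusted p = 0.0663, and 0.233 with the pair summed), a level 2.74-fold higher. Per kb of exon, Ldha still held 99.5 ± 0.255% of the pair at 2 kPa and 98.4 ± 0.375% at 50 kPa, so the B chain stayed a minor transcript in every library. Lactate export runs through Slc16a3 (MCT4), which was at 302, 307 and 362 CPM at 2 kPa and 294, 320 and 319 CPM at 50 kPa, and Slc16a1 (MCT1), which was 24.9 ± 7.83 and 21.3 ± 5.29 CPM. Neither separated the groups, and Slc16a3 took 92.7 ± 2.64% and 93.5 ± 1.76% of the pair per kb.

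Of the kinases that inhibit pyruvate dehydrogenase, Pdk2 (chromosome 11, 95026258 to 95041354, minus strand) was at 8.77, 5.44 and 5.89 CPM at 2 kPa and 15.7, 15.5 and 12 CPM at 50 kPa. Each library at 50 kPa was above each at 2 kPa, a 2.15-fold difference and a log2 fold change of 1.10 ± 0.22 (edgeR adjusted p = 0.0548, and 0.213 with the pair summed). Pdk3 (chromosome X, 93764607 to 93832201, minus strand) was at 63.5, 61.5 and 110 CPM at 2 kPa and 42.5, 39.3 and 56.1 CPM at 50 kPa, wholly lower (-0.77 ± 0.26, edgeR adjusted p = 0.131, and 0.366 with the pair summed; -0.44 without low tension replicate 3). Pdk1, the kinase best known as a target of hypoxia-inducible factor, was 97.6 ± 21.9 and 129 ± 27.2 CPM with overlap. Per kb, Pdk3 was 52.0, 61.1 and 72.9% of the kinases at 2 kPa and 37.7, 33.8 and 51.9% at 50 kPa, where low tension replicate 1 and high tension replicate 3 nearly met. Pdk2 was 6.77, 5.09 and 3.69% at 2 kPa and 13.1, 12.6 and 10.4% at 50 kPa, clearly apart. Pdk1 was 32.8 ± 8.86% and 46.8 ± 8.25%, with overlap. The summed PDK level was 58.8 ± 11.8 and 53.1 ± 1.97 CPM per kb, with overlap.

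Pcx, pyruvate carboxylase, which turns pyruvate into oxaloacetate (chromosome 19, 4510472 to 4621752, plus strand), was at 9.7, 10.0 and 15.3 CPM at 2 kPa and 23.7, 23.8 and 20.9 CPM at 50 kPa. The groups did not overlap, with a 1.95-fold difference and a log2 fold change of 0.97 ± 0.20 (edgeR adjusted p = 0.0555, 0.216 with the pair summed, and 0.0466 by limma-voom). The genes of the pyruvate dehydrogenase subunits were close in level at both stiffnesses, Pdha1 at 77.8 ± 6.13 and 85.6 ± 3.83 CPM and Pdhb at 65.6 ± 1.61 and 66.5 ± 3.17 CPM, with overlap.

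**Figure D4:**
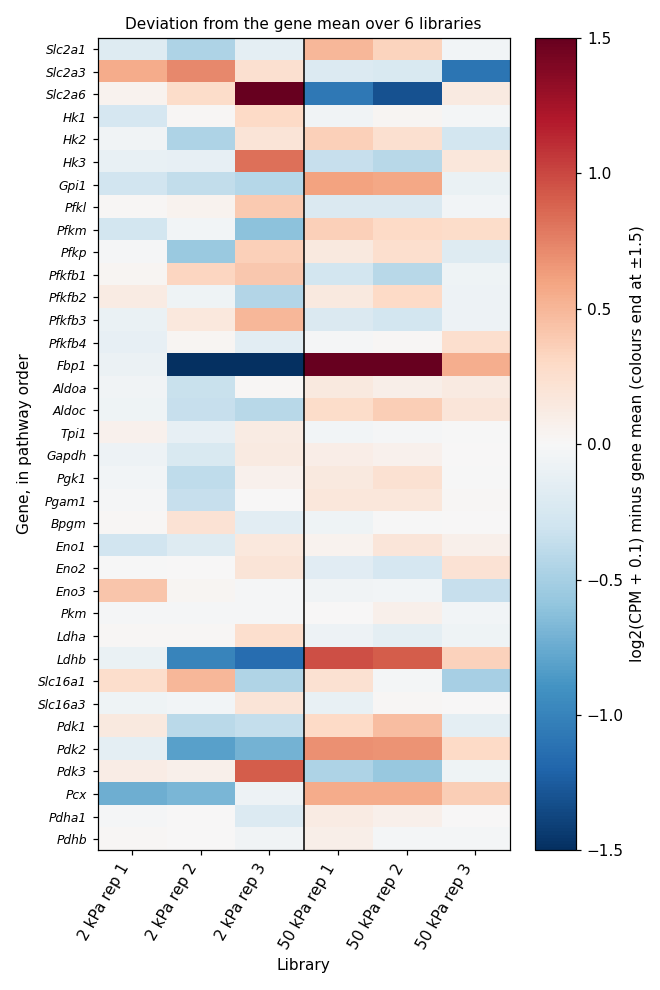
Deviation of log2(CPM + 0.1) from each gene's mean over the 6 libraries, for the 36 tested genes (rows, pathway order) and 6 libraries (columns, 2 kPa left of the line); colours end at ±1.5. High tension replicates 1 and 2 look alike, and low tension replicate 3 stands out in Slc2a6, Hk3 and Pdk3.

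The libraries were not equally spread. Low tension replicate 3 held the highest level of 12 of the 36 genes and the lowest of 9, and low tension replicate 2 the highest of 3 and the lowest of 11. High tension replicate 1 was highest in 11 and high tension replicate 3 in 2. The median coefficient of variation over the genes was 16.1% at 2 kPa and 9.34% at 50 kPa, where replicates 1 and 2 were nearly alike. Slc2a6, Hk3, Pfkl, Pfkfb1, Pfkfb3, Tpi1, Eno2, Ldha and Pdk3 were highest in replicate 3 of each group. Hif1a, the hypoxia-inducible factor gene, was at 209, 425 and 514 CPM at 2 kPa and 252, 201 and 611 CPM at 50 kPa, also highest in replicate 3 of each. Within the 50 kPa group, most of the 36 genes were lowest in replicate 3, among them Slc2a1, Hk2 and Pdk1 at 308, 186 and 99.6 CPM. Within the 2 kPa group, Slc2a1 and Hk2 were highest in replicate 3, at 287 and 258 CPM, and Pdk1 was not, at 86.4 CPM. A link between Hif1a and these genes was not tested.

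Among other genes of glucose use, edgeR called 1 of 90 tested in 7 lists, beside 3.45% of all genes tested. This was Txnip, which encodes a protein that limits glucose uptake and is known to be induced by glucose through MondoA (chromosome 3, 96557957 to 96561883, plus strand). Txnip was at 512, 334 and 439 CPM at 2 kPa and rose to 970, 1024 and 897 CPM at 50 kPa. All 3 libraries at 50 kPa were above all at 2 kPa, with a 2.25-fold difference and a log2 fold change of 1.17 ± 0.19 (edgeR adjusted p = 0.0381). The log2 fold change was 1.02 to 1.32 with any 1 library left out, but the call was lost without low tension replicate 2 or 3 or any 1 high tension library (edgeR adjusted p from 0.0563 to 0.196), with high tension replicates 1 and 2 summed (0.182), and with a filter of 5 CPM in 3 libraries (0.0583). Exons of Txnip overlap those of Gm15441 on the opposite strand. Of the 20 regulators tested, 1 rose and 0 fell by edgeR, 4 were higher and 0 lower at an unadjusted p under 0.05, and DESeq2 called 3 higher and 0 lower. Their median log2 fold change was 0.02. Of all genes tested, 13% were higher and 14.8% lower at an unadjusted p under 0.05, and DESeq2 called 8.52% and 9.51%. Egln3, a prolyl hydroxylase that hypoxia is known to induce, was at 279, 138 and 177 CPM at 2 kPa and 477, 484 and 232 CPM at 50 kPa, an overlap of the groups (edgeR adjusted p = 0.149); it was named after its values were seen, as was Hif1a.

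**Figure D5:**
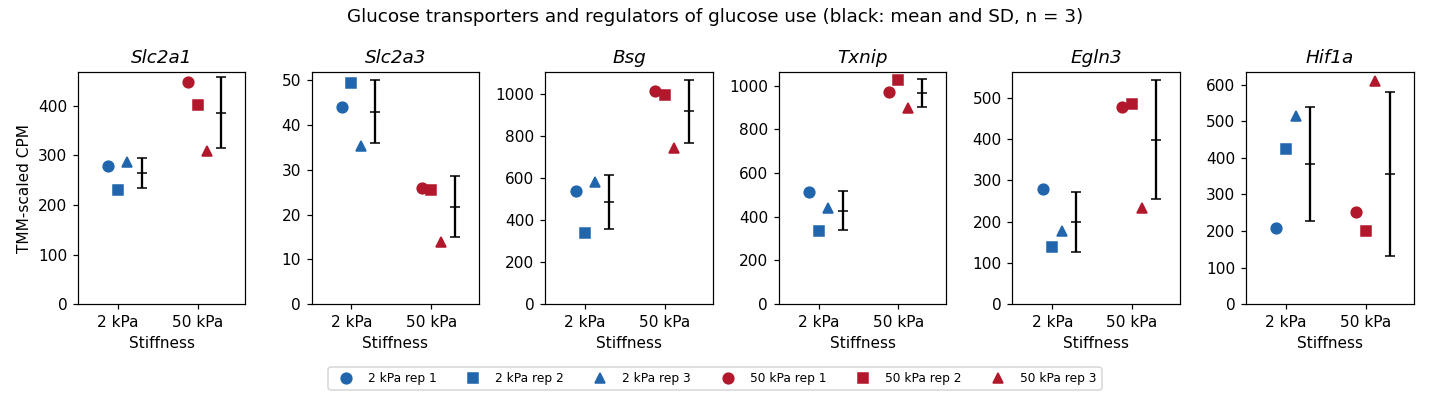
TMM-scaled CPM (linear axes from 0) of 6 genes of glucose transport and its regulation, one point per library, with mean and SD (n = 3) in black. Slc2a1, Bsg and Txnip lie higher and Slc2a3 lower in all 3 libraries at 50 kPa, while Egln3 and Hif1a overlap between the stiffnesses.

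The other 6 lists had 0 calls by edgeR. Their further counts stand beside 13% higher and 14.8% lower of all genes tested at an unadjusted p under 0.05. By DESeq2 those figures were 8.52% and 9.51%. Of 9 tested glucose transporters and isozymes outside the main set, 3 were higher and 2 lower at an unadjusted p under 0.05, and DESeq2 called 2 and 1. Bsg, the chaperone that carries MCT1 and MCT4 to the cell surface, was at 541, 341 and 582 CPM at 2 kPa and 1017, 997 and 744 CPM at 50 kPa, without overlap (0.91 ± 0.25, edgeR adjusted p = 0.0864). Adpgk, an ADP-dependent glucokinase, was 49.3 ± 12 and 31.3 ± 4.29 CPM (-0.66 ± 0.19, edgeR adjusted p = 0.102). Of 8 partners of pyruvate dehydrogenase and carriers of pyruvate, 3 were higher and 1 lower at an unadjusted p under 0.05, and DESeq2 called 1 and 0. Pdpr, a regulatory subunit of the phosphatase that reactivates the complex, was 9.45 ± 2.51 and 15 ± 1.7 CPM (edgeR adjusted p = 0.112), and Mpc2, a mitochondrial pyruvate carrier subunit, 32.1 ± 6.33 and 24.6 ± 1.18 CPM (0.17). Pentose phosphate genes (12 tested) had 2 higher and 1 lower by that measure and 0 and 1 by DESeq2. The lower one, Prps1, a ribose phosphate kinase, was 17.3 ± 6.03 and 7.28 ± 1.17 CPM (-1.25 ± 0.27, edgeR adjusted p = 0.0602), and Shpk, a sedoheptulose kinase, 4.2 ± 1.35 and 7.22 ± 1.28 CPM (0.143).

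Glycogen genes (16 tested) had 3 higher and 3 lower at an unadjusted p under 0.05, and the same numbers by DESeq2. Pygm, the muscle phosphorylase, was 2.32 ± 0.325 and 1.21 ± 0.0519 CPM (-0.94 ± 0.20, edgeR adjusted p = 0.0609). TCA cycle genes (22 tested) had 0 higher and 1 lower, Suclg2, a succinate-CoA ligase subunit (12.3 ± 3.93 and 7.68 ± 1.03 CPM, edgeR adjusted p = 0.144). DESeq2 called 1 of them higher and 0 lower. Gluconeogenesis genes (3 tested) had 1 higher, G6pc3, a glucose phosphatase (28.8 ± 6.5 and 40.6 ± 4.96 CPM, edgeR adjusted p = 0.149), and 0 by DESeq2, with Pck2 at 22.1 ± 5.04 and 20.1 ± 1.79 CPM. The medians of the 6 lists lay between -0.03 and 0.2, beside -0.028 over all genes tested.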

How the data were processed

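The deposited values are whole-number counts of reads per gene symbol, 1 table per library, without normalization. The builds mm10 and hg19 and the tools HTSeq 0.6.1p2, TopHat2 2.0.11, edgeR 3.8.6 and 3.16.5 and FastQC 0.11.2 stand in the submitters' processing notes. Roles, annotation and strand setting: not given in the sources used here. Groups follow the sample titles. In R 4.3.3, edgeR 4.0.16 kept genes by filterByExpr (minimum count 10, minimum total 15), scaled libraries by TMM factors and tested stiffness by glmQLFit and glmQLFTest over all 13155 genes, with Benjamini-Hochberg adjustment and a threshold of 0.05. On simulated counts with known changes in 196 of 13023 genes, the fit called 29.6% of 2-fold changes and 90.8% of 8-fold changes. The standard error is the log2 fold change divided by the square root of F. DESeq2 1.42.0 and limma 3.58.1 were alternatives, with other scalings, filters, a replicate block and each library left out. Exon lengths are unions of GENCODE vM21 basic exons (GRCm38). The genes and lists were chosen with earlier results of these data known. Of the set, values in every library are given for genes called, for genes whose groups do not overlap (mean 5 CPM or more), and for the top isozyme per kb at each step. Other lists give genes called, or else the 2 with the smallest p, some of which are not reported here. Older symbols matched Tigar (9630033F20Rik) and Adgre1 (Emr1). Rpel1 and Ly6g were not analysed here. Python 3.11.15 with matplotlib 3.10.9 drew the plots.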

Additional observations from a re-analysis of the deposited data

How the results depend on the processing

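With edgeR, 0 of the genes were called in either direction under any scaling or filter, apart from 1 higher (Pcx) with upper-quartile scaling. DESeq2 called 8 higher and 2 lower, and limma-voom 1 higher. With any 1 library left out, 0 to 4 were called higher and 0 lower, the 4 without low tension replicate 1. At an unadjusted p under 0.05, 4 were lower, but 7 with total-count scaling, 1 with high tension replicates 1 and 2 summed (chosen after seeing the data) and 1 to 6 with any 1 library left out; 8 were higher, and 7 to 9 so. Of all 13155 genes tested, 3660 had an unadjusted p under 0.05 in the main fit and 3409 with total-count scaling. With any 1 library left out, 2062 to 4184 genes had one. Over all genes, edgeR called 194 higher and 260 lower, DESeq2 1121 and 1251, and the filter of 5 CPM left 20 and 16. Leaving out low tension replicate 1 gave 255 and 256, and high tension replicate 3 118 and 215. Leaving out low tension replicate 2 left 1 and 0, and low tension replicate 3 left 3 and 0. Leaving out high tension replicate 1 or 2, or summing them, left 0 and 0 by edgeR, with 2080, 2062 and 2138 genes at an unadjusted p under 0.05. The cause was not tested. Groups stayed apart in 10 to 16 higher and 6 to 10 lower genes, 11 to 18 shares (Pdk4 counted) and 2 to 5 step totals with any 1 library left out, where fewer samples make overlap rarer: of all genes tested, 36.9 to 55.2% were then apart. They were apart in 6 step totals with total-count scaling.

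With any 1 library left out, the log2 fold change ran from -0.11 to 0.34 for Pfkp, from -0.1 to 0.03 for Slc16a3 and from -0.28 to 0.05 for Pck2. Hk1 (-0.18 to 0.09), Tpi1 (-0.12 to 0.01), Bpgm (-0.14 to 0.05) and Pdhb, which stayed within 0.05 of 0, also changed sign. The difference in share ran from -0.375 to 3.4 percentage points for Hk1 and from -2.31 to 0.214 for Slc16a1. The fold of the summed level ran from 0.807 to 1.13 for glucose transport, 0.821 to 1.08 for hexokinase, 0.883 to 1.1 for phosphofructokinase and 0.825 to 1.01 for PDK, each highest without low tension replicate 3. Without division by length the fold of PDK was 1.04. None of these had passed a test.

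With the replicate number as a block, edgeR called 2 higher (Ldhb and Pdk2) and 3 lower (Slc2a3, Slc2a6 and Pdk3), and 254 higher and 522 lower over all genes. Deviations of same-numbered libraries correlated at 0.542, -0.106 and 0.488, and the numbers were not treated as pairing the libraries.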
